A study of Mus musculus with 18 samples.

Results

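Desmosomes are spot-like adhesive junctions that couple the intermediate filaments of neighbouring cells. Desmosome genes were followed here through the conversion of mouse fibroblasts into induced pluripotent stem cells (iPSC). The 10 genes are the listed core components Dsp, Jup, Perp, Dsg2, Dsg3, Dsc2, Dsc3, Pkp1, Pkp2 and Pkp3, chosen by name and found by the RefSeq accession of their probe sets among 20233 measured genes, and all 10 had a probe set. In a desmosome, desmogleins and desmocollins, which are cadherins, hold the membranes of adjacent cells together. Inside the cell their tails bind plakoglobin and plakophilins, which belong to the armadillo family, and desmoplakin ties this plaque to keratin filaments. Epithelia and heart muscle depend on desmosomes, while fibroblasts generally lack them, and early mammalian embryos build them in the outer trophectoderm rather than in the inner cell mass.

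The starting cells (day 0) were secondary mouse embryonic fibroblasts at passage 4, isolated from E13.5 embryos that tetraploid complementation made wholly from iPSC, and grown in feeder medium with serum. All 9 groups shared the Oct4-GFP and Rosa26-M2rtTA alleles, a pluripotency reporter and the doxycycline-dependent activator, and the series title names OSKM, that is Oct4, Sox2, Klf4 and c-Myc, as the induced factors. Reprogramming cells were taken on days 1, 3, 5, 7, 11 and 15 in ES medium, to which 1 µg/ml of doxycycline, the inducer, and 50 µg/ml of vitamin C had been added. Day 18 cells had been without both additives for 3 days. The iPSC line grew in ES medium plus Gsk3 and Mek inhibitors, on feeders or without them, which is not specified for these arrays. Each group had 2 arrays, and since nothing says that these came from separate cultures, p-values measure only the spread between the arrays, which may be technical. Day 0 differs from every later group by its medium as well as by the factors, and the effects of medium, vitamin C and factors cannot be told apart.

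The values are log2 expression levels. A level under 5.30, the 95th percentile of 1075 olfactory receptor genes that most cells do not express, is called background here, and a difference from such a level is a lower bound, written as at least so many fold against the background level itself. A gene was called where limma's test across all 20233 genes gave a Benjamini-Hochberg adjusted p under 0.05 and the size of its log2 difference reached 1. Groups are said not to differ beyond their spread where this adjusted p was not under 0.05. That spread is pooled over all 9 groups. The arrays of such groups can still lie apart, as for Dsg2 in iPSC and on day 15. Steps in the order of levels compare neighbours only, and groups further apart in that order can differ where no single step does. The 2 arrays of a group correlated at r = 0.997 to 0.998. The day 18 arrays stood further apart (r = 0.993), and 264 genes differed over 2-fold between arrays against 5 to 16 elsewhere. On day 18 the largest gap of a desmosome gene was 1.05 for Pkp1, against 0.21 to 0.44 for the largest gap in the other groups, and the pooled standard errors may be too small for genes that varied more on day 18. Fibroblast markers (10 genes, Col1a1 and Thy1 among them) averaged 11.20 on both day 0 arrays, 6.61 and 6.58 on day 15, 8.72 and 7.78 on day 18, and 9.26 and 9.05 on the iPSC arrays. The mean level of Eif2s3y, a Y-linked gene, was 4.24 for day 0 and 3.99 for day 15, both under background, 8.53 for day 18 and 6.25 for iPSC. That of Xist, from the inactive X chromosome of female cells, was 5.01, 7.42, 6.45 and 8.53 in the same order, and the part of these levels in the comparisons with day 18 and iPSC was not tested.

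Most desmosome genes rose while the factors were active, at different times, and 7 of the 10 had their highest level on day 15. The level of 5 of the 10 lay under background in at least 1 group. Desmoplakin, desmocollin 2 and Perp rose within the first day, plakophilin 1 by day 3, desmoglein 2 mainly between days 7 and 11, and desmoglein 3 mainly between days 11 and 15. Calls against day 0 of Dsg3 on days 3 to 11, and of Dsc3 on days 3, 5 and 11, lay next to background. With values raised to background their day 3 differences from day 0 were 0.09 and 0.49 and no longer called. On day 15 Dsg3 stood 2.255 log2 units above background. In the iPSC line 8 of the 10 were lower than on day 15, or 7 with values raised to background, where Dsc3 was lost. Dsg2 and Pkp2 stood near their day 15 levels. All 10 differed over the 9 groups in limma's F test, with adjusted p from 3.76e-14 for Dsp to 2.44e-06 for Pkp3, a test that 78.8% of all genes passed.

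**Figure D1:**
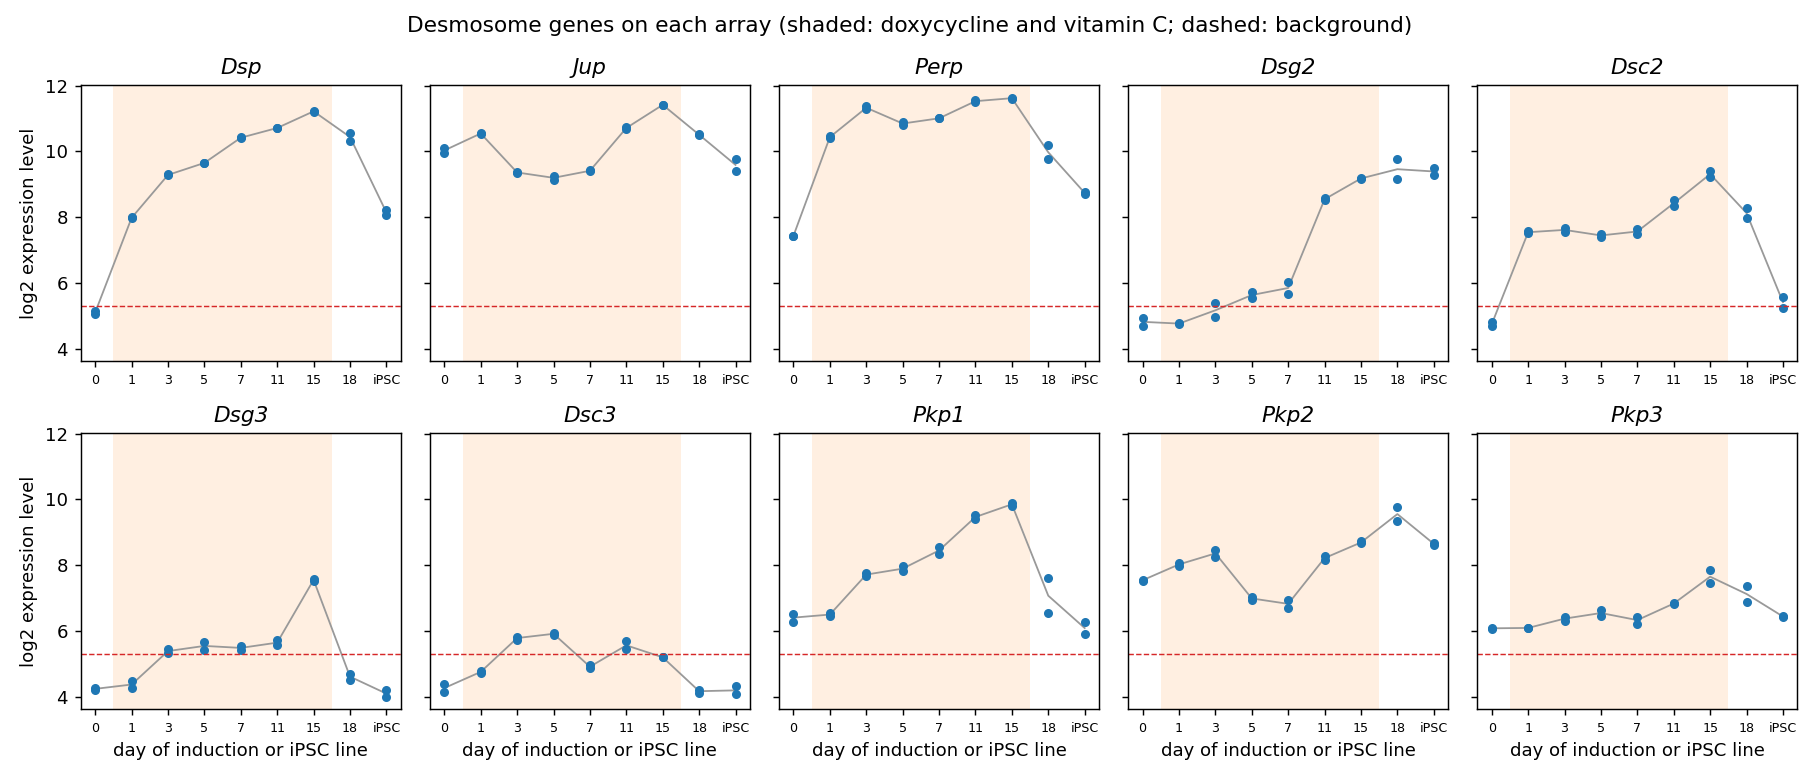
Level of each desmosome gene on every array, as log2 level (y axis) by day of induction or iPSC line (x axis, spaced evenly), with points for single arrays, lines through means of 2, shading for doxycycline and vitamin C and a dashed line at the background of 5.30. Dsp, Perp and Dsc2 jump between days 0 and 1, Dsg2 between days 7 and 11, and Dsg3 between days 11 and 15.

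Desmoplakin, encoded by Dsp, is the plaque protein that no desmosome lacks. Its level was 5.05 and 5.15 on the day 0 arrays, 7.995 and 7.957 on day 1, 9.26 and 9.30 on day 3, 9.65 on both arrays of day 5, and 10.40 and 10.42 on day 7. It continued at 10.70 and 10.72 on day 11, 11.24 and 11.19 on day 15, 10.31 and 10.56 on day 18, and 8.22 and 8.07 in iPSC. Every sampled day of induction lay above the one before, and no array of any later group overlapped day 0, which was under background. Dsp rose by 2.88 ± 0.08 (SE, 2 arrays a group) log2 units on day 1 (adjusted p = 1.09e-11), at least 6.41-fold, and stood 6.12 ± 0.08 above day 0 on day 15 (adjusted p = 7.64e-15), at least 60.6-fold. In the order of levels, day 18 and day 7 did not differ beyond their spread (10.44 and 10.41, adjusted p = 0.822), nor did iPSC and day 1 (8.14 and 7.98, adjusted p = 0.105). From day 15 to iPSC it fell by 3.07 ± 0.08 (adjusted p = 6.05e-12), to 3.04 ± 0.08 above the fibroblasts (adjusted p = 1.71e-12).

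Plakoglobin, encoded by Jup, serves adherens junctions as well as desmosomes and is a close relative of beta-catenin. Its level was 10.09 and 9.96 on day 0, 10.55 and 10.54 on day 1, 9.38 and 9.33 on day 3, 9.26 and 9.13 on day 5, and 9.42 and 9.40 on day 7. It then stood at 10.75 and 10.67 on day 11, 11.42 and 11.40 on day 15, 10.49 and 10.52 on day 18, and 9.76 and 9.41 in iPSC. Unlike the Dsp course, this one dipped: Jup fell by 1.19 ± 0.10 (SE) from day 1 to day 3 (adjusted p = 9.34e-07), rose by 1.30 ± 0.10 from day 7 to day 11 (adjusted p = 3.66e-07), and on day 15 was 1.39 ± 0.10 above day 0 (adjusted p = 1.52e-08). It was well above background in the fibroblasts already, and the dip of days 3 to 7 below day 0 (-0.67, -0.83 and -0.62) had adjusted p from 3.05e-06 to 5.64e-05 but did not reach the fold limit. From day 15 to iPSC it fell by 1.83 ± 0.10 (adjusted p = 2.32e-09). The steps in level from day 11 to day 1 and from day 1 to day 18 did not exceed the spread (adjusted p = 0.182 and 0.766). Nor did the single steps from iPSC down through days 7 and 3 to day 5 (adjusted p from 0.139 to 0.807). The ends of that chain had means of 9.59 in iPSC and 9.19 on day 5.

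The RefSeq promoter table for GRCm38.p6 matched 2 of the 10 genes, Dsp and Jup, which are shown as a pair of plaque genes with unlike courses. Each line gives bases before the outermost start of the gene, at chr13:38151044-38151293 on the plus strand for Dsp and chr11:100397840-100398040 on the minus strand for Jup. Capitals mark matches to CCACCC or its reverse complement GGGTGG, a core of sites for Klf factors, the only one of the motifs searched that either held.
Dsp: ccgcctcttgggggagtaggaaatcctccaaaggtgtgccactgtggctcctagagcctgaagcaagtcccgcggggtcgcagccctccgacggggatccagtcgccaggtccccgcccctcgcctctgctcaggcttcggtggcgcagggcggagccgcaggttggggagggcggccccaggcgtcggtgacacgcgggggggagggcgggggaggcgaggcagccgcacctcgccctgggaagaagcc
Jup: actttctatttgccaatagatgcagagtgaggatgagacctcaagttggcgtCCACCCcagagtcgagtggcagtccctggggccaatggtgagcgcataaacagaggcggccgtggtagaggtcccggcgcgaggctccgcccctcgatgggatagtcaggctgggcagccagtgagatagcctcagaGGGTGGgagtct
Searched on both strands were the 250 bases before the start that the table gives. For Jup the last 49 of these lie inside the annotated gene and are not printed. Jup held CCACCC 2 times, both in the printed bases, and Dsp held it 0 times, and 28.1% of all 32851 promoter windows of that length in the table held at least 1. Neither held the Snail and Zeb E-box CAGGTG (17.2% of windows), the Grainyhead-like core ACCGGTT (0.83%), the AP-1 site TGANTCA (6.75%) or ATGCAAA, part of the Oct4 octamer (4.12%). The GC content of the printed bases was 72.4% for Dsp and 60.2% for Jup.

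Perp encodes a tetraspan membrane protein that desmosomes of stratified epithelia need in mice, and it is known as a target of p53 and p63. Its level was 7.43 on both arrays of day 0, 10.40 and 10.46 on day 1, 11.29 and 11.36 on day 3, 10.80 and 10.89 on day 5, and 11.00 on both arrays of day 7. It reached 11.50 and 11.55 on day 11 and 11.64 and 11.60 on day 15, and stood at 9.76 and 10.18 on day 18 and 8.71 and 8.76 in iPSC. By day 3 it was 3.89 above day 0, and days 15 and 11 did not differ beyond their spread (adjusted p = 0.619), nor did days 11 and 3 (adjusted p = 0.150). Perp rose 8.01-fold on day 1 (3.00 ± 0.10 log2 units, SE, adjusted p = 3.72e-11) and was 18.2-fold above day 0 on day 15 (4.19 ± 0.10, adjusted p = 7.01e-13). It fell by 1.65 ± 0.10 from day 15 to day 18 (adjusted p = 1.74e-08) and by a further 1.23 ± 0.10 from there to iPSC (adjusted p = 6.40e-07), where it was still 2.47-fold above the fibroblasts.

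Desmoglein 2 and desmocollin 2 are the desmosomal cadherins found in simple epithelia and heart as well as in stratified tissue. Dsg2 was at 4.69 and 4.94 on day 0, 4.78 and 4.74 on day 1, 5.38 and 4.95 on day 3, 5.71 and 5.55 on day 5, and 6.02 and 5.66 on day 7. From there it stood at 8.51 and 8.57 on day 11, 9.17 and 9.18 on day 15, 9.16 and 9.75 on day 18, and 9.49 and 9.29 in iPSC. Arrays of days 0 and 1 lay under background, those of day 3 on either side of it, and every array from day 11 on lay over 2 log2 units above every earlier one. Dsg2 rose by 2.70 ± 0.18 (SE) between days 7 and 11, or 6.49-fold (adjusted p = 1.67e-07), and from day 15 on it did not differ beyond its spread (day 18 and iPSC, adjusted p = 0.814; iPSC and day 15, adjusted p = 0.387). In iPSC it was at least 17.0-fold above day 0 (adjusted p = 6.65e-11), and its call on day 7 (1.03 ± 0.18, adjusted p = 1.98e-04) became 0.55 with values raised to background.

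Dsc2 took another course. Its level was 4.80 and 4.69 on day 0, 7.51 and 7.57 on day 1, 7.54 and 7.68 on day 3, 7.39 and 7.49 on day 5, and 7.65 and 7.48 on day 7. It was 8.51 and 8.33 on day 11, 9.40 and 9.21 on day 15, 7.96 and 8.28 on day 18, and 5.58 and 5.24 in iPSC. The course had a step on day 1, a plateau to day 7, on which neighbouring levels did not differ beyond their spread (adjusted p from 0.560 to 0.909), and a second climb to day 15. Dsc2 rose by 2.80 ± 0.13 (SE) on day 1, at least 4.74-fold (adjusted p = 4.72e-10), and stood 4.56 ± 0.13 above day 0 on day 15, at least 16.1-fold (adjusted p = 2.42e-12). It fell by 1.18 ± 0.13 to day 18 (adjusted p = 3.61e-06) and fell by 2.71 ± 0.13 from day 18 to iPSC (adjusted p = 2.69e-09), where its mean of 5.41 lay just over background. Against day 0, which was under background, Dsc2 in iPSC was not called (adjusted p = 3.59e-04), and at least 1.08-fold is all that the background level supports.

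Desmoglein 3 and desmocollin 3 belong mainly to the basal layers of stratified epithelia such as skin. On these arrays both lay near or under background in most groups. Dsg3 was at 4.20 and 4.28 on day 0, 4.47 and 4.26 on day 1, 5.32 and 5.45 on day 3, 5.65 and 5.43 on day 5, 5.55 and 5.41 on day 7, and 5.57 and 5.72 on day 11. It was 7.59 and 7.51 on day 15, 4.51 and 4.70 on day 18, and 3.99 and 4.19 in iPSC. On day 15 Dsg3 stood over 2 log2 units above background, and on days 3 to 11 just above it. Dsg3 rose by 1.91 ± 0.11 (SE) from day 11 to day 15, or 3.75-fold (adjusted p = 6.25e-08), and fell by 2.94 ± 0.11 to day 18 (adjusted p = 1.78e-10), where it was under background. In the order of levels, the single steps among days 11, 5, 7 and 3 did not exceed the spread (adjusted p from 0.539 to 0.787). Nor did those from day 18 to day 1, day 0 and iPSC, all under background (adjusted p from 0.0752 to 0.361). Groups further apart in that order did differ by limma. Day 18 was 0.37 above day 0 (adjusted p = 0.00886), and iPSC stood at -0.52 against day 18 (adjusted p = 0.00178). Its calls against day 0 on days 3 to 11 (1.15 to 1.41) rest on values next to background, and with all values raised to the background level they shrank to 0.09 to 0.35.

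Dsc3 was at 4.14 and 4.38 on day 0, 4.78 and 4.73 on day 1, 5.74 and 5.83 on day 3, 5.88 and 5.94 on day 5, and 4.86 and 4.96 on day 7. It stood at 5.44 and 5.68 on day 11, 5.20 and 5.19 on day 15, 4.21 and 4.12 on day 18, and 4.32 and 4.07 in iPSC. The arrays of days 3, 5 and 11 were the ones over background. Dsc3 was highest on day 5, 1.65 ± 0.10 (SE) above day 0 (adjusted p = 5.50e-09), but at least 1.53-fold is all that the background level supports. On day 15, when the other 9 genes were called higher than day 0, Dsc3 was 0.93 ± 0.10 above it (adjusted p = 2.13e-06) and under background, and 1.05 without the second day 0 array, which made it a call. With values raised to background its calls against day 0 on days 3, 5 and 11 were lost (0.49, 0.62 and 0.26). The steps in level from day 5 to day 3 and from day 3 to day 11 did not exceed the spread (adjusted p = 0.473 and 0.118).

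Plakophilins bind desmoplakin and cluster the cadherins. Plakophilin 1 is best known from the upper layers of stratified epithelia, plakophilin 2 from simple epithelia and heart, and plakophilin 3 from most epithelia. Pkp1 was at 6.28 and 6.52 on day 0, 6.55 and 6.45 on day 1, 7.75 and 7.67 on day 3, 7.98 and 7.81 on day 5, and 8.56 and 8.33 on day 7. It was 9.41 and 9.52 on day 11, 9.81 and 9.89 on day 15, 7.60 and 6.54 on day 18, and 6.26 and 5.92 in iPSC. Its climb from day 3 to day 15 ended in a return to the fibroblast level, with iPSC and day 0 not differing beyond their spread (adjusted p = 0.280). Nor did days 3 and 5, 5 and 7, and 11 and 15 (adjusted p = 0.689, 0.158 and 0.322). Pkp1 stood 3.45 ± 0.24 (SE) above day 0 on day 15, or 10.9-fold (adjusted p = 1.38e-08), and fell by 2.78 ± 0.24 to day 18 (adjusted p = 3.68e-07). That fall was -2.25 without the second day 18 array and -3.31 without the first.

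Pkp2 was at 7.52 and 7.56 on day 0, 7.98 and 8.06 on day 1, 8.26 and 8.45 on day 3, 7.03 and 6.94 on day 5, and 6.93 and 6.71 on day 7. It was 8.16 and 8.27 on day 11, 8.72 and 8.66 on day 15, 9.35 and 9.76 on day 18, and 8.68 and 8.62 in iPSC. Like Jup, Pkp2 had a trough in mid-course: it fell by 1.37 ± 0.12 (SE) from day 3 to day 5 (adjusted p = 4.10e-06) and rose by 1.39 ± 0.12 from day 7 to day 11 (adjusted p = 1.22e-06). It was one of 2 genes with their highest level on day 18, together with Dsg2, at 2.01 ± 0.12 above day 0 (adjusted p = 3.48e-09), and in iPSC it was 1.11 ± 0.12 above day 0 (adjusted p = 1.33e-06) and level with day 15 within the spread (-0.04 ± 0.12, adjusted p = 0.811). The single steps down from day 15 through iPSC and days 3 and 11 to day 1 did not exceed the spread (adjusted p from 0.0502 to 0.811). Nor did that from day 5 to day 7 (adjusted p = 0.424). This does not make the ends of the chain alike, with means of 8.69 on day 15 and 8.02 on day 1.

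Pkp3 moved least of the plakophilins, with group means that spanned 1.57 log2 units. Its level was 6.09 and 6.07 on day 0, 6.10 and 6.08 on day 1, and between 6.22 and 6.63 on the arrays of days 3, 5 and 7. It was 6.85 and 6.82 on day 11, 7.85 and 7.44 on day 15, 6.88 and 7.37 on day 18, and 6.43 and 6.44 in iPSC. Pkp3 was called against day 0 on day 15 (1.57 ± 0.15, SE, adjusted p = 3.82e-07) and on day 18 (1.04 ± 0.15, adjusted p = 2.61e-05). The day 18 call was lost without the second day 18 array (0.80) and after another quantile normalization (0.98). From day 18 down to day 0 no neighbours in level differed beyond their spread (adjusted p from 0.118 to 0.962), although day 18 and day 0 themselves did, as given above. A second Pkp3 probe set, for another transcript accession, was lower on every array (mean 6.43 against 6.61), and averaging both changed no call.

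The comparisons with day 0 asked how far the desmosome genes had moved from the fibroblast state, and since all share the day 0 arrays they are given side by side. On day 1, 3 of 10 were called higher, where 7.62% of all genes were. The count was 6 for each of days 3, 5 and 7, against 8.68%, 9.5% and 10.1% of all genes. It was 7 at day 11 (9.89%), 9 at day 15 (10%) and 6 at day 18 (8.87%), and iPSC had 4 (10.1%). With values raised to background the count was 4 for each of days 3, 5 and 7, where Dsg3 was lost on all 3 days, Dsc3 on days 3 and 5 and Dsg2 on day 7. At day 11 it was then 5, without Dsg3 and Dsc3. Called lower were 0 of 10 in each of these by limma, while at an unadjusted p under 0.05 up to 2 were lower, Jup and Pkp2 on days 5 and 7. Their adjusted p, from 3.05e-06 to 9.26e-04, was under 0.05 too, and they missed the call by the fold limit alone. Counts by limma, here and below, include the fold limit, so a gene outside them can still have an adjusted p under 0.05. Of all genes, 6.54%, 8.94%, 9.75%, 9.85%, 9.64%, 8.83%, 8.64% and 9.79% were called lower in the same order of groups, from day 1 to iPSC. For counts at an unadjusted p under 0.05, here and below, the share of all genes was not computed. The median difference of the 10 genes was 0.49 at day 1, 1.40 at day 5, 3.38 at day 15 and 0.51 in iPSC, against 0.01, 0.125, 0.05 and 0.01 for all genes. Counting only what lies above background, the medians of the 10 genes were 0.29, 0.54, 2.85 and 0.24. In these bulk samples a larger share of cells with a gene on and more RNA of it per cell cannot be told apart.

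**Figure D2:**
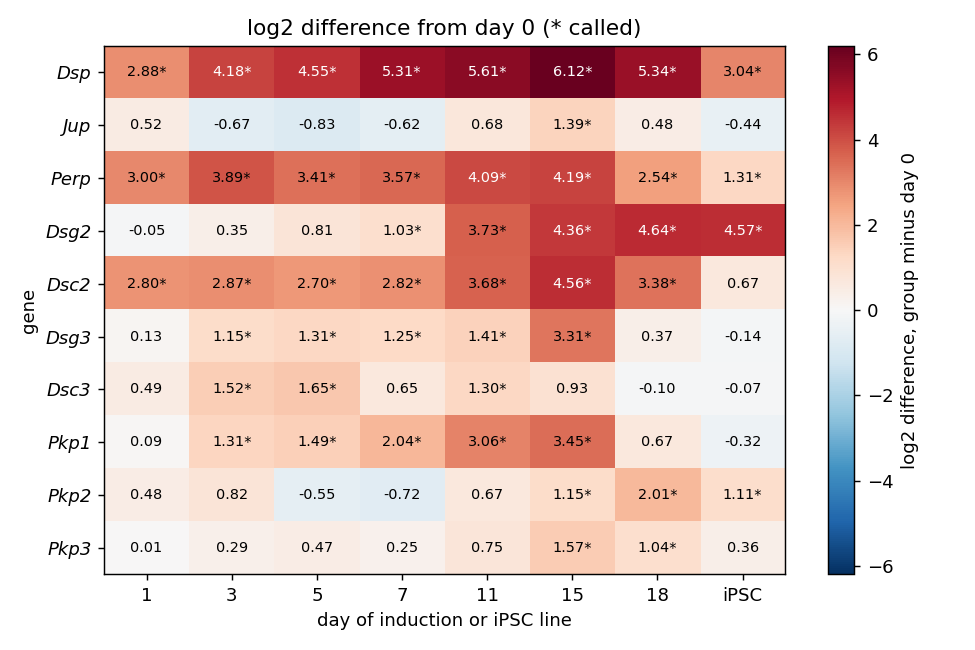
Log2 difference of each desmosome gene from day 0, with rows for genes and columns for the day of induction or the iPSC line, where colour and printed number give the difference of means of 2 arrays, and an asterisk marks a called gene. The day 15 column has 9 of 10 genes marked, and the iPSC column has Dsp, Perp, Dsg2 and Pkp2 marked.

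The comparisons of neighbouring groups asked when the changes took place. From day 1 to day 3, 4 genes rose (0.722% of all genes) and 1 fell (2.31%), the risers being Dsp by 1.30, Pkp1 by 1.22, Dsc3 by 1.03 and Dsg3 by 1.02, while Jup fell. The Dsg3 and Dsc3 calls lay close to the limit of 1 and were lost after another quantile normalization (0.93 and 0.96) and without the second day 3 array (0.95 and 0.98), which leaves 3 calls of 5. From day 3 to day 5 the sole call was the fall of Pkp2 (0.361% of all genes were lower), and from day 5 to day 7 that of Dsc3, by 1.00 ± 0.10 (SE, 0.386%), at the limit itself and lost without the second day 5 array (-0.97) or the first of day 7 (-0.95). Between these days no gene was called higher by limma (0.791% and 0.638% of all genes were), with 2 and 3 higher at an unadjusted p under 0.05. From day 7 to day 11, 4 genes rose (1.83%), Dsg2, Pkp2, Jup and Pkp1, the last by 1.02 ± 0.24 (adjusted p = 0.00539), a call lost without the second day 7 array (0.91) or the second day 11 array (0.96), and 0 fell (1.23%), with 9 higher and 0 lower at an unadjusted p under 0.05. From day 11 to day 15 Dsg3 was the 1 gene that rose (1.66%) and 0 fell by limma (0.247%), with 7 higher and 1 lower at an unadjusted p under 0.05, and without the second day 15 array Pkp3 was a further call (1.02). The genes with an unadjusted p under 0.05 from day 7 to 11 and from day 11 to 15 had an adjusted p under 0.05 too. Those not called missed the fold limit.

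Day 18 was set against day 15 to see what followed the removal of doxycycline and vitamin C. No group of day 18 kept the additives, so removal, time and the survival of some cells cannot be told apart. Eif2s3y was under background on day 15 and at 8.53 on day 18. A different source of cells cannot be told apart from these either. Called lower were 5 of 10 genes (4.07% of all genes), Dsg3, Pkp1, Perp, Dsc2 and Dsc3, and 0 were called higher by limma (4.67%), with 1 higher at an unadjusted p under 0.05, Pkp2 at 0.86 ± 0.12 (SE, adjusted p = 3.19e-05). Dsc3 fell by 1.03 ± 0.10 between levels under background, so no fold can be given. With values raised to background 4 genes were called lower, without Dsc3. Jup and Dsp stood at -0.91 and -0.78, with adjusted p of 2.95e-06 and 2.63e-06, under the fold limit. Stratified epithelium markers (10 genes, Krt5, Krt14 and Sprr1b among them) averaged 7.20 and 7.40 on the day 15 arrays and 5.71 and 5.81 on day 18, with 8 and 5 of the 10 over background. Simple epithelium markers (Krt8, Krt18 and Epcam among 10) averaged 10.67 and 10.60 on day 15 and 10.14 and 10.39 on day 18, all 10 over background. Trophoblast markers, also 10 genes, averaged 5.22 and 5.30 on the day 0 arrays, 6.81 and 6.78 on those of day 15, 7.45 and 7.70 on those of day 18, and 5.86 and 5.82 in iPSC. Of these, 4 were over background in the fibroblasts, 9 on both day 15 and day 18, and 6 in iPSC. The part of such cell types in the rises and falls of the desmosome genes was not tested. Levels of different genes come from different probes and were not compared.

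From day 18 to iPSC 3 genes were called lower (2.84% of all genes). Dsc2 fell by 2.71, Dsp fell by 2.29 and Perp fell by 1.23, and 0 rose by limma (1.57%), with 0 higher at an unadjusted p under 0.05. Without the first iPSC array 5 were lower, Jup (-1.09) and Pkp1 (-1.15) being added. Against day 15, 8 of 10 were lower in iPSC (5.48%). The differences ran from -1.01 for Dsc3, -1.21 for Pkp3 and -1.83 for Jup to -3.46 for Dsg3, -3.76 for Pkp1 and -3.89 for Dsc2. Dsc3 lay under background in both groups and was at -0.88 without the second iPSC array. With values raised to background 7 were lower, without Dsc3. Dsg3 was under background in iPSC, and its fall as far as the background level was -2.255. Called higher were 0 by limma (5.52%), with 0 higher at an unadjusted p under 0.05. Dsg2 stood 0.21 ± 0.18 (SE) above day 15 and Pkp2 0.04 ± 0.12 below it. Gsk3 and Mek inhibitors are given for the iPSC line alone. Their effect and that of the iPSC state cannot be told apart in the comparisons with days 15 and 18. The iPSC arrays also carried the fibroblast marker levels given above, and simple epithelium markers at 7.78 and 7.86, and whether feeder cells or other cells contributed to the levels of desmosome genes was not tested.

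**Figure D3:**
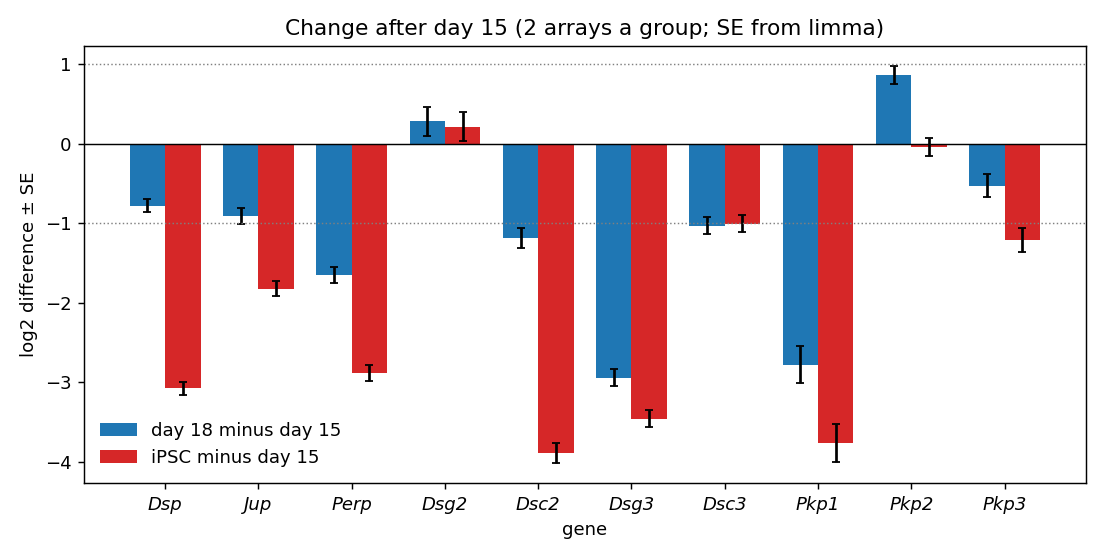
Change of each desmosome gene after day 15, as bars of the log2 difference of means of 2 arrays (y axis), blue for day 18 minus day 15 and red for iPSC minus day 15, error bars are the SE from limma, and dotted lines mark the fold limit of 1. The red bars of Dsg2 and Pkp2 lie near 0, at 0.21 and -0.04, while those of the other 8 reach from -1.01 to -3.89. Dsc3 lay under background on day 15, on day 18 and in iPSC, and Dsg3 on day 18 and in iPSC.

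**Figure D4:**
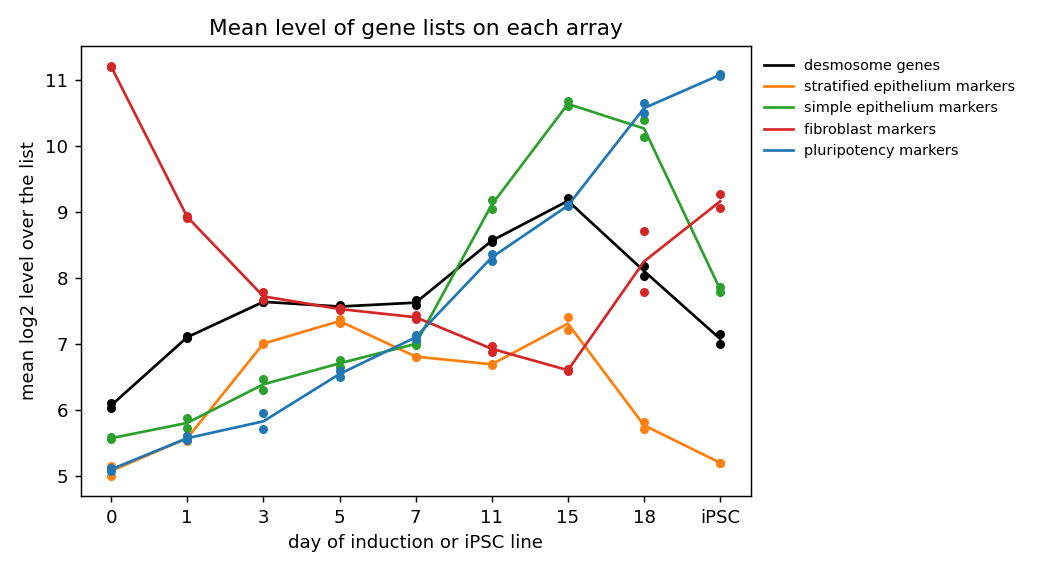
Mean log2 level of the 10 desmosome genes and of 4 marker lists of 10 genes each, by day of induction or iPSC line (x axis), with points for single arrays and lines through means of 2. The desmosome mean climbs to 9.20 and 9.13 on the day 15 arrays and is 7.14 and 7.00 in iPSC, while the stratified list peaks on days 5 and 15 and the fibroblast list turns upward after day 15.

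Over the 9 group means the desmosome genes did not share one course. Among 45 pairs Pearson's r ran from -0.37 (Pkp2 and Dsc3) to 0.91 (Pkp1 and Dsg3, and Dsc2 and Perp), with a median of 0.52, and 4 pairs were over 0.8, the other two being Dsp with Dsc2 and Dsp with Perp (0.89 and 0.86). These values describe 9 points that share their arrays and their order in time. For the 8 genes whose means spanned at least 2 log2 units, the most alike of 2893 other genes with such a span were looked up in the same way. Closest to Dsp were Dock9 (r = 0.97), Gldc, a glycine cleavage enzyme gene (0.96), and Podxl, a sialomucin gene (0.95), and Podxl was also among the closest to Perp (0.96, after Isyna1 at 0.97) and Dsc2 (0.93, with Bmp8b at 0.93). The third gene was Esrp2, an epithelial splicing factor gene, for Perp (0.95) and Arhgap27 for Dsc2 (0.92). Closest to Dsg2 were Camsap3 (0.999), Wfdc2 (0.99) and Sall4 (0.99), which encodes a factor of pluripotent cells. Closest to Dsg3 were the basal keratin gene Krt5 (0.98), Nccrp1 (0.975) and Ly6d (0.97), and to Pkp1 they were Lgals7 (0.98), a galectin gene of stratified epithelia, Cyp4f39 (0.97) and Cdkl2 (0.97). Less alike were the best matches of Pkp2, which were Castor1 (0.91), Hspb1 (0.89) and Dusp9 (0.89), and of Jup, which were Myo1e (0.94), Tmcc3 (0.93) and Tnfaip3 (0.92).

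Of 10 further desmosome-related genes 9 were measured, and on day 15, 3 were higher than day 0 and 0 lower by limma, with 5 higher and 0 lower at an unadjusted p under 0.05. They were Ppl at 3.46, encoding periplakin, a relative of desmoplakin, Kazn at 1.68, whose product binds periplakin, and Pkp4 at 1.63, from a plakophilin relative found mostly in other junctions. Evpl, encoding envoplakin, stood at 0.91. The list's median was 0.48 against 0.05 for all genes. For this list and those below, the shares of all genes called on day 15 were 10% higher and 8.83% lower. The third desmocollin gene, Dsc1, which marks the upper epidermis, was called higher on day 5 (adjusted p = 1.47e-09), at least 2.58-fold, from a mean of 4.02 under background to 6.66, and was under background again on day 15 at 4.50. The other measured desmoglein genes Dsg1b, Dsg1c and Dsg4 stood at -0.01, -0.17 and 0.14 on day 15, although Dsg4, known from hair follicles, had been called on day 7 with a mean of 5.37 next to background, at least 1.05-fold.

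Adherens junction genes, which link actin rather than keratin, moved both ways, with 3 of 12 higher and 3 lower on day 15. Cdh1, encoding E-cadherin, stood at 5.84, Nectin4 at 3.18 and Afdn, encoding the actin linker afadin, at 1.69, while Cdh2, encoding N-cadherin, stood at -2.89, Cdh3 at -1.83 and Vcl, encoding vinculin, at -1.33. Ctnnb1, which encodes beta-catenin, was at 0.03 ± 0.06 (SE), beside Jup at 1.39. Of 11 filament genes 9 were higher and 1 lower on day 15, led by the keratin genes Krt17 at 6.09, Krt8 at 5.62, Krt18 at 5.37 and Krt14 at 5.11, with the muscle filament gene Des at -2.64. In iPSC against day 15, 9 were lower (5.48% of all genes), with Krt8 at -5.19, and 1 was higher (5.52%), Des at 4.27. Vim, encoding the vimentin filaments of fibroblasts, was at -0.39 on day 15.

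Among 15 genes of epithelial transcription and splicing factors, 13 were higher than day 0 on day 15 and 0 lower by limma, with 14 higher and 0 lower at an unadjusted p under 0.05. They included Esrp1 at 5.37, the Ets factor genes Ehf at 4.32 and Elf3 at 4.31, and Tfap2c at 3.49, and the Grainyhead-like genes Grhl1, Grhl2 and Grhl3 stood at 2.52, 3.08 and 3.27. Trp63, encoding p63, was at 0.00 on day 15, from a day 0 mean of 5.78, and at most 0.24 above day 0 on any sampled day. All 6 genes of epithelial repressors were lower on day 15 and 0 higher by limma, with 0 higher at an unadjusted p under 0.05: Snai2 at -4.46, Zeb1 at -3.53, Twist1 at -3.13, Twist2 at -2.89, Zeb2 at -2.06 and Snai1 at -1.92. On day 1, when Dsp, Dsc2 and Perp had risen, 3 of the 6 were lower (6.54% of all genes). These were Snai1 at -1.65, Snai2 at -1.57 and Zeb1 at -1.44. The part of such factors and repressors in the rises of desmosome genes was not tested. A list of 15 p53 family genes and targets held Pmp22, from the family of Perp. On day 15, 0 of them were higher (10% of all genes) and 1 lower (8.83%) by limma. At an unadjusted p under 0.05, 6 were higher and 4 lower. The p53 target genes Cdkn1a and Mdm2 stood at 0.08 and -0.29 beside Perp at 4.19, and Pmp22 at -1.95. Next in size were Fas at -0.90, Trp73 at 0.65 and Bbc3 at 0.65, none of them called. Trp63 belongs to this list and to the epithelial factors. The part of p53 and p63 in the course of Perp was not tested.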

How the data were processed

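Total RNA of 18 samples, 2 in each of 9 groups, was hybridised to arrays. The authors deposited log2 values from RMA (named in the submitters' processing notes), a method with background correction, quantile normalization and probe summary, which evens out any shift common to all genes. For its version, chip definition and build, the entry is: not given in the sources used here. Of 29643 probe sets, each identified by a RefSeq accession, 27260 matched 1 symbol of a GRCm38.p6 RefSeq table (used for names) and 2383 none. For the 20233 genes, the probe set with the highest mean was used, and no filter on low values was applied.

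limma (version 3.58.1, R 4.3.3) fitted 1 mean per group to all 18 arrays, with 9 residual degrees of freedom, a prior of 4.25 and Benjamini-Hochberg adjustment over all genes in each of 16 comparisons. The number of arrays limits the precision, with a median SE of a difference of 0.0976. The steps were tested on simulated data. Named were all 10 genes, up to 4 members of each further list with the largest differences, and the 3 genes most alike. Genes named beyond these (Trp63, Vim, Des, Ctnnb1, Afdn, Vcl, the other Dsg and Dsc genes, the Grainyhead-like genes, Zeb2, Snai1, Cdkn1a, Mdm2, Eif2s3y, Xist) were chosen after their values were seen. The 10 genes and the lists were chosen with earlier results of these data known.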

Additional observations from a re-analysis of the deposited data

How the results depend on the processing

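Each count of called desmosome genes and each gene's difference was recomputed under the alternatives. Of 2050 recomputed differences 2011 kept their side of the threshold, 30 lost and 9 gained a call, and 0 called differences changed direction. Small differences that were not called could change sign. For Dsg2 from day 0 to day 1 (-0.05) the range without 1 array was -0.18 to 0.07. The counts stayed within 1.5 times in every comparison when using array weights, eBayes with trend and robust, the mean of all probe sets, the fit without dim genes, without the day 18 arrays or with the 2 groups alone. With no fold limit 6 genes were called on day 1 and 10 on day 5 against day 0, and between neighbouring groups 3 from day 3 to 5, 2 from day 5 to 7, 9 from day 7 to 11, 8 from day 11 to 15, 9 from day 15 to 18 and 8 from day 18 to iPSC, since this alternative drops the limit by construction. The share of all genes called without the limit was not computed, so these counts cannot be set against it. From day 1 to day 3 another quantile normalization and values raised to background gave 3 calls each in place of 5. From day 5 to day 7 they gave 0 each in place of 1.

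Leaving out 1 array moved the counts to 3 to 5 (day 1 to 3), 0 to 1 (day 5 to 7), 1 to 2 (day 11 to 15), 4 to 6 (day 15 to 18), 3 to 5 (day 18 to iPSC) and 3 to 4 (day 7 to 11). The counts against day 0 were then 5 to 6 on day 7 and 9 to 10 on day 15, and 7 to 8 in iPSC against day 15. The arrays that moved a count by over 1.5 times were the second of day 3 (3 from day 1 to 3), the second of day 5 and the first of day 7 (0 each from day 5 to 7), the second of day 15 (2 from day 11 to 15) and the first of iPSC (5 from day 18). The lone array left is assumed to vary like the other groups. The Dsg2 call on day 7 was lost after another quantile normalization (0.99), with values raised to background (0.55), and without the first array of day 0 (0.90) or of day 7 (0.85). Pkp1 on day 18 stood at 0.67 above day 0, and at 1.19 and called without the second day 18 array.

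Same-numbered arrays did not deviate together (r from -0.19 to 0.15 over 36 pairs of groups). This cannot show whether the numbers pair the samples, since the noise of single arrays could hide a shared culture. The labels do not say. With the replicate number as a block every count was as before, such as 9 on day 15 and 8 in iPSC against day 15.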
